A study of Owenia fusiformis with 11 samples.

Results

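Larval genes lost at metamorphosis are described here for the annelid Owenia fusiformis, as 89 of the 26960 genes in the deposited expression table. The genes were chosen by their measured values: both competent larva libraries had to hold at least 300 normalized reads and the juvenile library at most 5% of the lower larval value, a fall of at least 20-fold. Normalized reads are estimated reads per gene, summed over its transcripts and scaled between libraries. The chosen genes make up 0.330% of all genes and 0.756% of the 11774 genes that reached 300 in both larval libraries, and the values that chose them are given as a description without a test. With larval replicate 1 alone the rule found 159 genes and with larval replicate 2 alone 122. Both sets must hold all 89, since the rule takes the lower larval value. The word larval refers to the competent larva only, since the earlier stages were not analysed here. All 89 genes necessarily passed a filter on low values (above 2 in at least 1 library), since the rule asks for 300.

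For this, 3 RNA-seq libraries were compared: 2 of competent larvae, the stage about to metamorphose, at 3 weeks after fertilization, and 1 of juveniles, which the labels place at 3 weeks plus 1 h. Animals were raised in artificial seawater from gametes of adults collected from the sea, larvae were fed algae, and metamorphosis was prompted with a little mud. Each library was made from a pool of whole animals, and per the study's methods samples within a replicate came from 1 fertilization. The juvenile, collected without a duplicate, is labelled replicate 1. Whether it shares the fertilization of larval replicate 1 is not stated. Normalized reads summed to 39675427 and 36714310 in larval replicates 1 and 2 and to 44094069 in the juvenile. The juvenile has no replicate, so no difference below has a replicate check on the juvenile side. In whole animals, fewer cells of a type and less RNA per cell cannot be told apart.

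The larva of oweniids, the mitraria, swims and feeds in the plankton with a long ciliary band and carries a bundle of long larval chaetae. The trunk of the worm grows inside it as a rudiment, and at metamorphosis the trunk is everted within a short time while much of the larval body is cast off or resorbed. The genes are known here only by the numbers of the deposited table, since none of its identifiers matched the 27038 genes of the reference table, and no gene name or function is therefore given. Marker genes of larval organs could not be checked for the same reason.

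In the larva the 89 genes spanned from 304 to 93360 normalized reads in replicate 1, with a median of 1662, and from 313 to 63494 in replicate 2, with a median of 1603. In the juvenile they spanned from 1.68 to 2259, with a median of 47.4, and none was listed at 0. Of the 89 genes, 13 were still at 300 or more in the juvenile. Together they held 1.88% of all normalized reads in larval replicate 1 and 1.51% in replicate 2 (1.70% ± 0.264, SD, n = 2), against 0.0383% in the juvenile. The median log2 difference between the juvenile and the larval mean, taken on log2(value + 1), was -5.05, with quartiles of -5.50 and -4.79. Over the 11774 genes at 300 or more in both larval libraries it was 0.0099, and over the 25969 genes above 2 in at least 1 library it was 0.14. Against larval replicate 1, which has the replicate number of the juvenile, the median of the 89 genes was -5.15, and against replicate 2 it was -4.99.

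**Figure D1:**
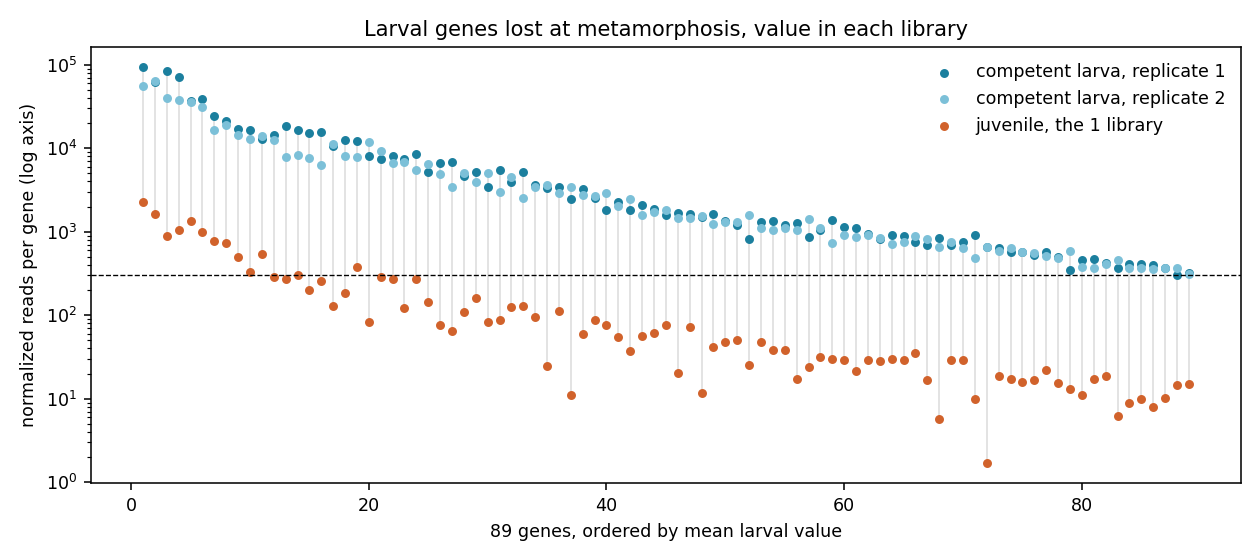
Normalized reads of the 89 genes in each of the 3 libraries (y, log axis), with genes ordered by their larval mean (x). The dashed line marks 300, the limit set for both larval libraries, and the juvenile points lie between 1.68 and 2259, each at most 5% of the lower larval point of the same gene.

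Falls of this size were rare between the larval libraries themselves. Of 12869 genes at 300 or more in larval replicate 1, 10 (0.0777%) were at 5% or less in larval replicate 2, against 159 (1.24%) in the juvenile. Of 12491 genes at 300 or more in larval replicate 2, 3 (0.0240%) were at 5% or less in larval replicate 1, against 122 (0.977%) in the juvenile. Of the 159 genes chosen with replicate 1 and the juvenile, 149 reached 300 in replicate 2 and 89 (56.0%) met the whole rule there. Of the 122 chosen with replicate 2, 104 reached 300 in replicate 1 and 89 (73.0%) met the whole rule there. Both choices used the same juvenile library, and the 89 genes are by definition those common to both. These shares therefore describe the choice and are not an independent check of the fall. Reaching 300 in the other library was common among all genes, since 11774 of the 12869 and of the 12491 genes did so. Among all genes at 300 or more, a juvenile value below both larval values by over 2-fold was found for 12.1% of 11774.

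The ratio of the lower larval value to the juvenile value ranged from 20.0 to 386, with a median of 31.2 and quartiles of 24.6 and 41.5. Of the 89 genes, 65 were above 25-fold, 24 above 40-fold, 13 above 50-fold and 5 above 100-fold. OFUSG13613 was just inside the limit, with 8628 and 5503 normalized reads in the larval libraries and 275 (4.99%) in the juvenile. OFUSG00048 (4.99%) and OFUSG01775 (4.90%) were next. OFUSG21842 was just outside, with 517 and 510 in the larval libraries and 25.5 (5.01%) in the juvenile, followed by OFUSG06093 (5.10%) and OFUSG23335 (5.14%). At the larval limit, OFUSG15868, OFUSG14445 and OFUSG14856 were just inside with lower values of 304, 313 and 344. OFUSG26846, OFUSG24031 and OFUSG23340 were just outside with 298, 285 and 280.

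**Figure D2:**
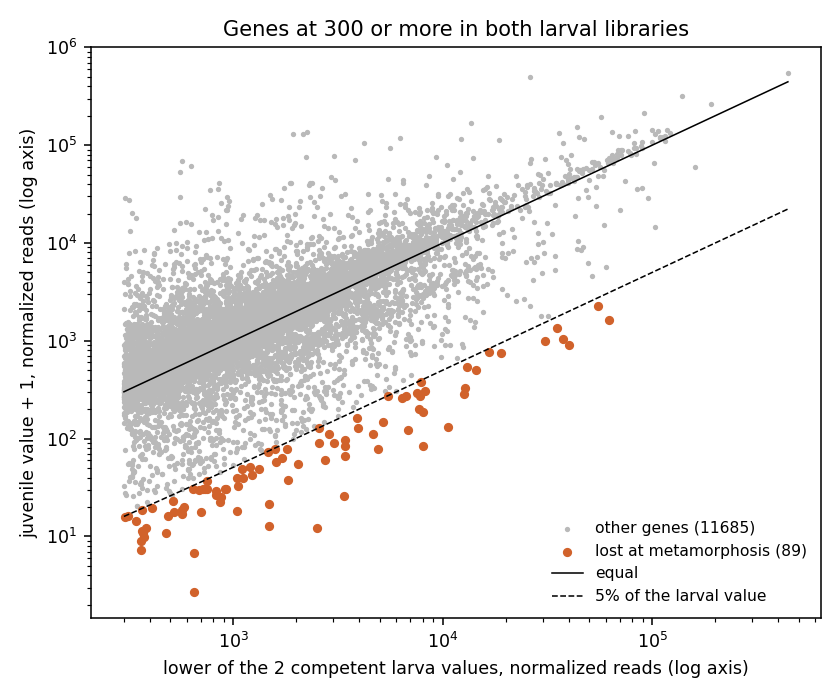
Juvenile value plus 1 (y, log axis) against the lower of both larval values (x, log axis), in normalized reads, for the 11774 genes at 300 or more in both larval libraries. The 89 chosen genes lie below the dashed line at 5% of the larval value, most of them close to it, while the median of all genes lies near the solid line of equal values.

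The values are reads per gene and were not divided by transcript length, so their order mixes length with abundance. The largest larval values belonged to OFUSG23343, with 93360 and 55219 normalized reads in larval replicates 1 and 2 and 2259 in the juvenile. OFUSG15874 had 62112 and 63494 in the larva and 1623 in the juvenile. OFUSG23405 had 83328 and 39918 in the larva and 897 in the juvenile. OFUSG23343 also had the largest juvenile value of all 89, while OFUSG15874 was nearly equal in both larval libraries.

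OFUSG01265 had 71706 and 37691 normalized reads in the larva and 1041 in the juvenile. OFUSG07581 had 37023 and 35270, against 1361, and OFUSG16714 had 38836 and 30729, against 985. The 5 genes with the largest larval means supplied 46.5% and 41.8% of the reads of the set in larval replicates 1 and 2 and 42.6% in the juvenile. OFUSG04224, OFUSG18247, OFUSG25910 and OFUSG17997 completed the 10 largest, with larval means from 14714 to 20412 and juvenile values from 331 to 770. By larval mean, 29 genes lay between 300 and 1000, 24 between 1000 and 3000, 17 between 3000 and 10000, and 19 above 10000. The median ratio in these classes was 31.2, 29.4, 35.5 and 28.8, all cut off below at 20 by the rule. Of all genes with a larval mean above 10000 and at least 300 in both libraries, 3.39% met the rule, against 0.569%, 0.562% and 0.918% in the lower classes.

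The 5 largest ratios rest on juvenile values of 24.6 or less. OFUSG05994 had 659 and 649 normalized reads in the larva and 1.68 in the juvenile, a ratio of 386 that depends on a very low juvenile value. OFUSG05997 had 2494 and 3449, against 11.3 (222-fold), and OFUSG13049 had 3357 and 3667, against 24.6 (137-fold). The larval libraries differed little in OFUSG05994, by -0.023 on the log2 scale, and by 1.38-fold in OFUSG05997. With a pseudocount of 5 in place of 1, the log2 difference of OFUSG05994 went from -7.93 to -6.62, behind OFUSG05997 at -7.50 and OFUSG13049 at -6.89. OFUSG03145 had 1482 and 1555, against 11.7 (126-fold), and OFUSG20021 had 836 and 649, against 5.70 (114-fold). Of these 5 genes, 4 had another of the 89 within 5 gene numbers, against 26 of all 89 (29.2%). OFUSG05994 and OFUSG05997 lie within 5 numbers of each other, so the 4 are not independent.

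Neighbouring gene numbers were examined next, which the rule did not use. The numbers run up to 27050 with 90 missing. No source used here says whether they follow the order of genes on the chromosomes. Of the 89 genes, 14 (15.7%) had another at the next gene number, and 26 (29.2%) had one within 5 numbers. Being next to another is mutual, so the genes are not independent in this count and no interval is given. The set makes up 0.330% of all genes. Among the genes exactly 1 number away from a chosen gene, 14 of 170 (8.24%) were chosen too, as were 8.62% at 2 numbers, 4.34% at 3 to 5, 1.15% at 6 to 10 and 0.138% at 11 to 20. The genes did not crowd into 1 stretch of the numbering, since every 1000 numbers up to 26999 held between 1 and 10 of them, with the most, 10, between 15000 and 15999.

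Other genes near them were also low in the juvenile. Of 64 genes that were not chosen, lay at the number before or after a chosen gene and reached 300 in both larval libraries, 25 (39.1%) were more than 2-fold lower in the juvenile than in both larval libraries. The share was 11.4% over all genes at 300 or more that were not chosen. It was 21.7% at 2 numbers, 19.9% at 3 to 5, 9.82% at 6 to 10 and 12.1% at 11 to 20. The median log2 difference of genes at 1 number and above 2 in at least 1 library was -0.22, against 0.14 over all such genes that were not chosen, and at up to 5 numbers it was 0.034. Thus the shift lay close to the chosen genes and included a minority of their neighbours.

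**Figure D3:**
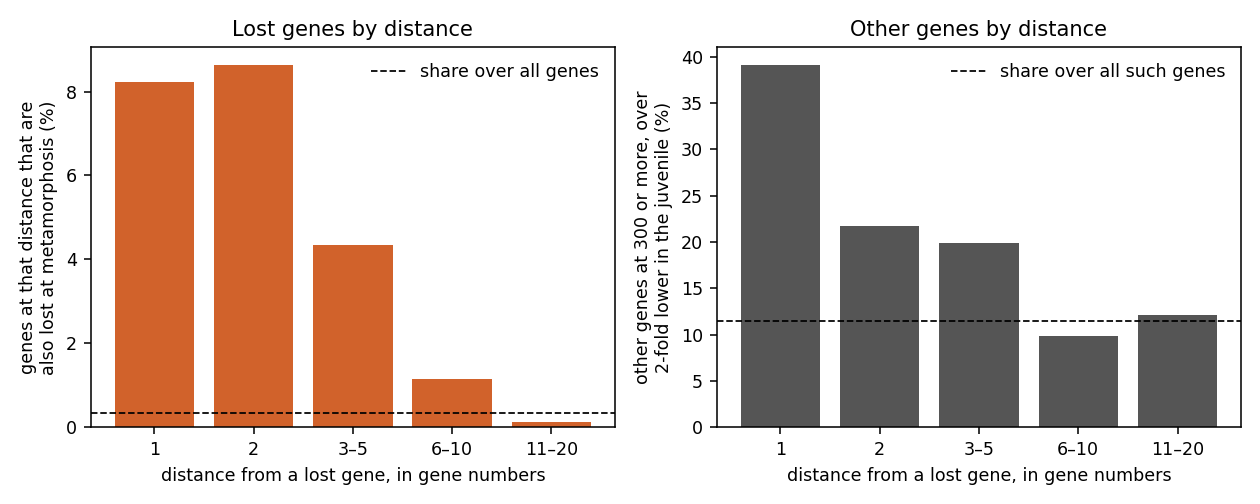
Share of genes also lost at metamorphosis (left, %) and share of other genes at 300 or more in both larval libraries that were over 2-fold lower in the juvenile (right, %), by distance from a chosen gene in gene numbers. Dashed lines give the shares over all genes, 0.330% and 11.4%, and the bars at 1 number reach 8.24% and 39.1%.

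The 26 genes with another within 5 numbers formed 8 groups, 5 of them with at least 3 genes. The longest run of consecutive numbers was OFUSG15566 to OFUSG15569. OFUSG15566 had 406 and 369 normalized reads in the larva and 9.85 in the juvenile, and OFUSG15567 had 1137 and 909, against 29.4. OFUSG15568 had 1662 and 1472, against 20.6, and OFUSG15569 had 3205 and 2724, against 60.0. All 4 were somewhat higher in larval replicate 1. Before this run, OFUSG15564 and OFUSG15565 were at 4.21% and 2.78% of their lower larval values of 90.9 and 109. After it, OFUSG15570 was below 20 in all libraries and OFUSG15571 was at 119%. OFUSG15562, also chosen, completed this group of 5.

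The second group of 5 comprised OFUSG17992, OFUSG17994, OFUSG17995, OFUSG17997 and OFUSG17998. OFUSG17997 had 16627 and 12802 normalized reads in the larva and 331 in the juvenile, and OFUSG17998 had 12556 and 8007, against 186. OFUSG17995 had 7478 and 6842, against 121. OFUSG17996, between them, was not chosen: with 1021 and 988 in the larva and 283 in the juvenile it kept 28.7% of its lower larval value. The nearest genes outside the group with at least 20 in both larval libraries, OFUSG17990 and OFUSG18001, were at 104% and 154%. A group of 3, OFUSG05994, OFUSG05996 and OFUSG05997, had ratios from 82.3-fold to 386-fold, and its largest member, OFUSG05996, had 10638 and 11155 in the larva and 129 in the juvenile. OFUSG05995 lay at 6.42%, just outside the rule, and OFUSG05993, the number before the group, was higher in the juvenile, with 1089 and 947 in the larva and 3086 in the juvenile. The other group of 3 was OFUSG21603, OFUSG21604 and OFUSG21606, with ratios from 20.9 to 60.6.

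**Figure D4:**
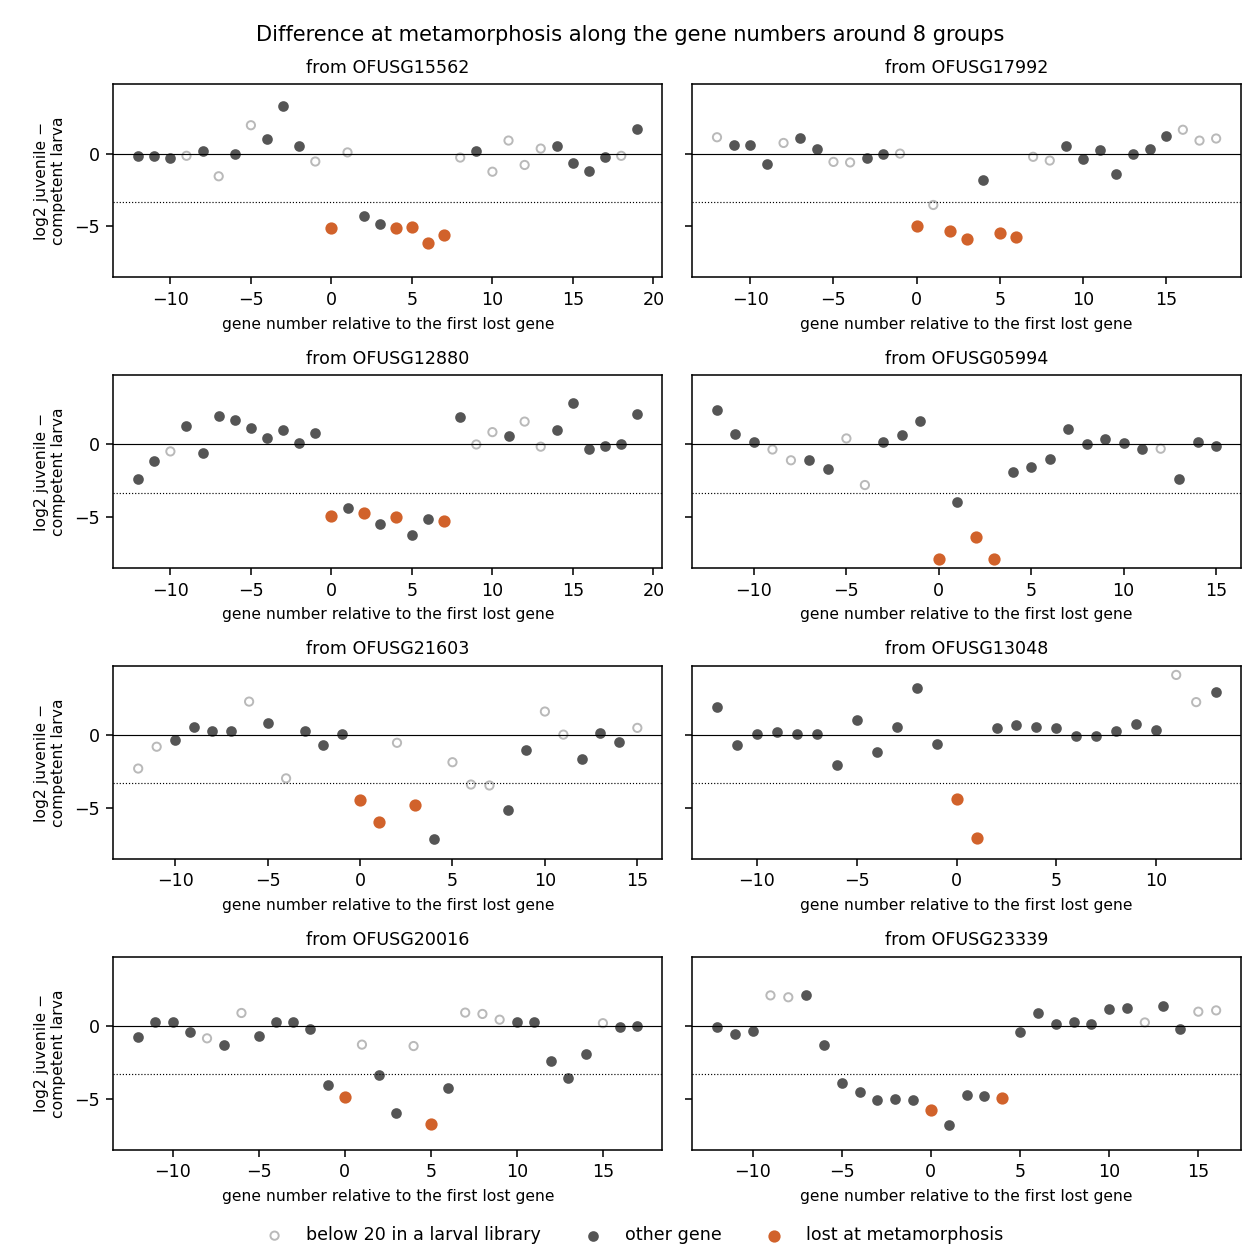
Log2 difference between the juvenile and the larval mean (y, on values plus 1) along the gene numbers around the 8 groups (x, number relative to the first chosen gene of the group). Filled orange points are chosen genes, filled grey points other genes, open points genes below 20 in a larval library, and the dotted line marks a 10-fold fall. The low points lie close together. Between chosen genes, OFUSG15563 (0.083) and OFUSG21605 (-0.52) lie near 0, and both were below 20 in a larval library. Most points outside the low points lie nearer 0, with further low points around OFUSG21603 and OFUSG20016.

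Several groups continued into genes that missed the rule only by their larval value. Blocks were therefore sought as consecutive gene numbers with at least 20 normalized reads in both larval libraries and a juvenile value of at most 10% of the lower, limits that were chosen after the values were seen. These limits were met by 401 of 19765 genes (2.03%). They formed 13 blocks of at least 3 genes, and 12 of these blocks held at least 1 of the 89 genes. In all, 21 of the 89 genes lay in such blocks, against 65 of all 401 genes that met the limits. Since the 89 genes meet the block limits themselves, this overlap was fixed in part by the choice.

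The longest block ran over 10 numbers from OFUSG23334 to OFUSG23343. It included OFUSG23343, the gene with the largest larval value of the set, and OFUSG23339, with 363 and 456 normalized reads in the larva and 6.22 in the juvenile. The other 8 genes had larval means from 110 to 1108 and juvenile values from 0.715% to 6.92% of the lower larval value. The lowest of these was OFUSG23340, with 280 and 427 in the larva and 2.00 in the juvenile. OFUSG23344, the next number, was at 105%. Within this block the larval libraries did not differ in 1 direction, since 7 genes were higher in replicate 2 and 3 in replicate 1.

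In the block of 8 from OFUSG12880 to OFUSG12887, 4 chosen genes were interspersed with 4 genes of low larval value. OFUSG12880 had 2073 and 1603 normalized reads in the larva and 57.2 in the juvenile. OFUSG12882 had 890 and 746, against 29.3, OFUSG12884 had 1052 and 1104, against 31.6, and OFUSG12887 had 2289 and 2034, against 54.2. The 4 genes between them had larval means from 46.5 to 142 and juvenile values of 0 to 1.43. At such low values their ratios are poorly determined, and OFUSG12883 was listed at 0 in the juvenile. OFUSG12879 and OFUSG12888, on either side, were higher in the juvenile than in both larval libraries, with 1616 and 566. The larval values were 828 and 1086 for OFUSG12879, and far apart for OFUSG12888, at 398 and 57.5.

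A further block of 8, OFUSG15862 to OFUSG15869, held 1 chosen gene, OFUSG15868. Of its other genes, 4 stood between 5.14% and 5.58% in the juvenile, just outside the rule. OFUSG15867 had 3157 and 3924 normalized reads in the larva and 170 in the juvenile (5.37%), OFUSG15869 had 1481 and 1898, against 76.2 (5.14%), and OFUSG15865 had 1129 and 1605, against 60.8 (5.39%). In 7 of the 8 genes larval replicate 2 was the higher. OFUSG15870, with 2219.8 and 1415 in the larva and 156 in the juvenile, narrowly missed the limits and separated this block from another of 4 that ended with OFUSG15874. OFUSG15873 in this second block had 12925 and 9032 in the larva and 888 in the juvenile (9.83%).

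The block from OFUSG14851 to OFUSG14856 had 6 genes, of which OFUSG14856 was chosen, with 344 and 584 normalized reads in the larva and 13.2 in the juvenile. The block from OFUSG18467 to OFUSG18470 held the chosen OFUSG18469, with 638 and 581, against 18.8, beside OFUSG18467, with 9333 and 6000, against 309 (5.15%). Reads that match several near-identical transcripts are divided among them by estimation in kallisto, so values of neighbours that are copies of each other would be uncertain, which was not tested.

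Opposite neighbours were also found. The gene next to a chosen gene with the largest rise among those at 300 or more in the juvenile was OFUSG23404, with 147 and 22.5 normalized reads in the larva and 930 in the juvenile, a log2 difference of 3.98. Its larval libraries differed 6.55-fold. It stands beside OFUSG23405, at a log2 difference of -6.00, so that adjoining numbers moved in opposite directions there.

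The spread between the larval libraries was described over the same genes. The rule acted on it, since it took the juvenile against the lower larval value and so left out genes far lower in 1 larval library. Of the 89 genes, 70 (78.7%) were within 1.5-fold between the larval libraries, close to the 76.1% of all genes at 300 or more. Of the rest, 15 (16.9%) were more than 1.5-fold higher in replicate 1 and 4 (4.49%) in replicate 2, against 13.6% and 10.4% over all genes at 300 or more. The median log2 difference, replicate 2 minus replicate 1, was -0.14 against -0.027. The genes with a larval mean above 10000 stood out, with a median of -0.53 and 9 of 19 more than 1.5-fold higher in replicate 1, against a median of -0.12 and 19.5% over all genes of that class. In the class from 300 to 1000 it was 1 of 29 genes, against 12.2% over all genes of that class. From 1000 to 3000 it was 1 of 24, against 14.1%, and from 3000 to 10000 it was 4 of 17, against 14.4%.

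OFUSG19884 differed most, with 15464 normalized reads in larval replicate 1 and 6369 in replicate 2 (2.43-fold) and 257 in the juvenile. OFUSG20661 had 18290 and 7796 (2.35-fold), against 271, and OFUSG23405 was 2.09-fold higher in replicate 1. In the other direction, OFUSG06140 had 829 and 1594 (1.92-fold), against 25.3, OFUSG14856 was 1.70-fold higher in replicate 2, and OFUSG26823 had 869 and 1411 (1.62-fold), against 24.0.

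**Figure D5:**
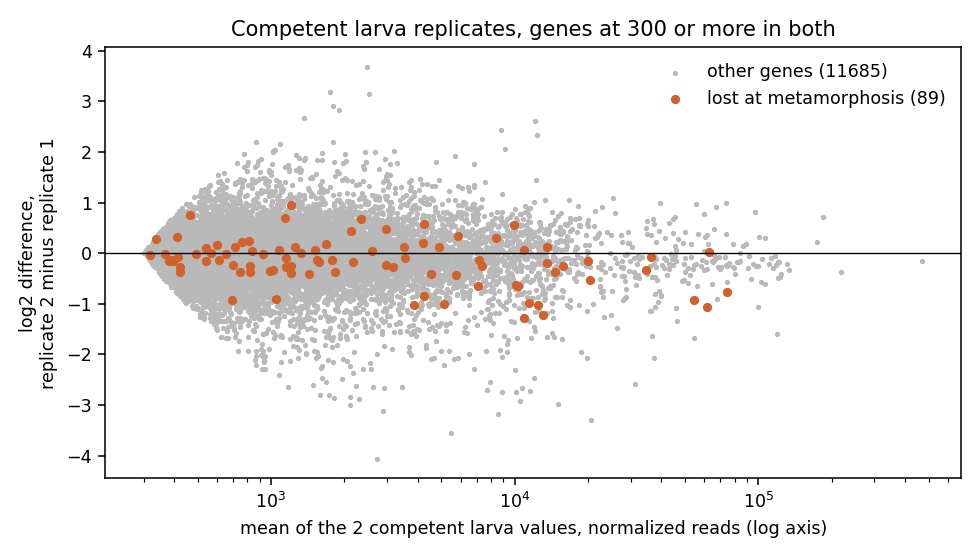
Log2 difference between larval replicate 2 and replicate 1 (y, on values plus 1) against the mean larval value in normalized reads (x, log axis) for genes at 300 or more in both larval libraries. The chosen genes, in orange, scatter around 0 at low values, with a median of -0.53 above a mean of 10000.

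Of the 89 genes, 11 (12.4%) had more than 1 transcript in the table, with at most 3, compared with 20.2% of the genes at 300 or more and 13.98% of the 25969 genes above 2 in at least 1 library. In OFUSG20021, 1 of the transcripts was listed at 0 in all 3 libraries and the other held all reads. In OFUSG15562, transcript OFUSG15562.2 had 394 and 351 normalized reads in the larva and was listed at 0 in the juvenile, whereas OFUSG15562.1 had 66.2 and 32.4 in the larva and 11.1 in the juvenile. The juvenile reads of this gene were thus all assigned to its minor larval transcript. OFUSG15841 had 3 transcripts, of which OFUSG15841.1 had 251 and 277 in the larva and 3.29 in the juvenile, and OFUSG15841.3 had 148 and 82.7, against 4.65. OFUSG19746, with 8035 and 11885 in total and 83.4 in the juvenile, combined OFUSG19746.1, with 5036 and 4918 against 69.8, and OFUSG19746.2, with 2999 and 6966 against 13.6. Both of its transcripts were abundant in both larval libraries and low in the juvenile.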

How the data were processed

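The deposited expression values are a normalized signal per transcript. The authors trimmed reads of strand-specific libraries, pseudoaligned them to their gene models with kallisto (0.46.2) and normalized the estimated reads between libraries with DESeq2 (1.30.1). The table held 31897 transcripts, which were summed to 26960 genes by the identifier before the numeric suffix. Another 24 expression columns belong to other samples and were not used. The 8 ATAC-seq libraries and their peaks carry no gene identifier of this kind and were not used. The values are not whole multiples of a common step (of 20 steps tried, the best gave whole numbers for 0.292% to 0.319% of values above 0 per library, within 0.001), so whole reads were not recovered, the depth is unknown and no count model or interval from reads was applied.

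Members and lists were chosen with earlier results of these data known. No test was made, since the rule used the contrast and the juvenile is 1 library. Log2 differences were taken on log2(value + 1), which understates the change of low genes. Named genes are the 10 largest larval means, the 5 largest ratios, the 2 longest runs of numbers, 3 genes on each side of each limit, the 3 largest larval differences each way, the 3 genes whose transcripts had the most unequal log2 differences (in OFUSG20021 because 1 transcript is at 0 throughout), and the strongest riser beside a member. Members listed at 0 in the juvenile would have been added, but there were 0. Other genes around the groups and in blocks, and OFUSG19746, were named after their values were seen. Alternatives changed the libraries, scaling, limits, pseudocount and distance. Functions were checked on simulated data. Python 3.11.15, pandas 2.3.3 and numpy 2.4.6 were used.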

Additional observations from a re-analysis of the deposited data

How the results depend on the processing

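The number of genes meeting the rule ranged from 122 to 159 with 1 larval library left out. It was 135 after quantile normalization, 13 with a juvenile limit of 2%, 255 with 10%, and 56 with a larval limit of 1000. All 89 genes were among those found with quantile normalization or with libraries scaled to equal sums. With equal sums this was fixed in advance, since that scaling raised both larval libraries and lowered the juvenile. With single transcripts, 87 of the 89 were among the 116 found. This too was fixed for every gene with 1 transcript, whose value is the same either way. That all 89 were found with either larval library alone was fixed by the rule, which takes the lower larval value. Their median log2 difference between juvenile and larva of -5.05 was -4.88 with a pseudocount of 5, -5.26 with libraries scaled to equal sums and -5.44 after quantile normalization. These scalings moved the median of all genes above 2 from 0.14 to -0.069 and -0.092. The median difference between larval replicates of the 89 genes became -0.027 with equal sums. The share of the genes with another at the next number, 15.7%, was 29.2% within 5 and 31.5% within 10 numbers, and between 21.8% and 22.6% in the larger sets from 1 larval library, a limit of 100 or a limit of 10%. Those larger sets hold all 89 genes and make up between 0.441% and 0.946% of all genes, against 0.330% for the 89. The median log2 difference of other genes beside the 89 turned from -0.22 at 1 number to 0.034 at up to 5 numbers, where more distant genes enter. The 13 blocks numbered 12 to 18 under other scalings or with 1 larval library. All 234 values of 39 named genes under these alternatives kept their direction. This was largely fixed by the choice, since all of these genes had large differences in the main values. No paired analysis was possible because larva and juvenile share only 1 replicate number. The single juvenile library limits every difference.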

Other observations

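Loss at metamorphosis was also found for single transcripts of genes whose sum did not meet the rule. Read on single transcripts, the rule was met by 119 transcripts of 116 genes, and 29 of these genes were not among the 89. The only block of at least 3 consecutive genes that held none of the 89 ran from OFUSG22050 to OFUSG22052, with larval means from 33.7 to 622 and juvenile values from 7.54% to 8.10% of the lower larval value.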
